A study of Mus musculus with 80 samples.

Results

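Carboxylesterases are serine hydrolases that cleave ester, thioester and amide bonds in drugs, pesticides and endogenous lipids. Most of them sit in the lumen of the endoplasmic reticulum. In the mouse the genes of this family stand in tandem on chromosome 8, where repeated duplication gave rise to several close copies of the CES1 and CES2 types. In liver and fat, Ces1d (triacylglycerol hydrolase) and its relatives also act on stored neutral lipid. In the lung, carboxylesterases have long been known as esterases of the airway epithelium and other lung cells.

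The genes described are Ces1d, Ces1f, Ces1g, Ces2e and Ces2g, 5 of 17097 genes measured on the arrays in mouse whole lung. They were selected by gene symbol: a probe set counted for a gene when its annotation gave that symbol alone, and among several the one of highest mean signal in the 80 arrays would have stood for the gene. Each of the 5 had 1 probe set, so that step decided nothing. The 5 genes were picked from 13 measured carboxylesterase genes with results of these arrays known, so the p-values below are given as a description of these genes. Of the 5, 4 were tested: a gene entered the tests when its log2 signal exceeded 4.28, the table median, in 5 arrays or more. Ces2e exceeded it in 0 of 80 arrays and has levels only. Ces1f and Ces1g exceeded it in 37 and 38 arrays, all of them WT or CD-1 apart from 2 TG arrays for Ces1f, so they were tested because of their level in those strains.

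Lungs, labelled as 1 day, were taken on the morning after a single exposure of 6 h to air or to styrene, a volatile aromatic solvent used in plastics. Adult male mice of 4 strains, all from Taconic, breathed 0 (air), 10, 40 or 120 ppm. CYP2F2 knockout mice (KO) and CYP2F1 humanized mice (TG) were C57Bl/6 mice, CD-1 is an outbred stock, and the wild type (WT) was C57Bl/6. CYP2F2, a mouse cytochrome P450 of airway club cells, can oxidize styrene, and CYP2F1 is the related human enzyme. The sources used here do not give the promoter and cell type that drive CYP2F1 in TG, or whether TG also lacks mouse Cyp2f2. Each of the 16 groups held 5 arrays, each a lung labelled as a biological replicate, and this number limits the precision.

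Values are log2 signals, and a difference of 1 is a 2-fold difference. Array medians averaged 4.16 in KO, 4.10 in TG, 4.27 in CD-1 and 4.57 in WT, so strains in air were tested after the median of the tested genes was subtracted from each array. TG 0 ppm replicate 4 had the lowest median, 3.84, the next TG array standing at 4.07. Arrays of 1 group correlated at 0.978 to 0.997. In air, Cyp2f2 averaged 11.68 ± 0.10 (KO), 11.66 ± 0.19 (TG), 13.02 ± 0.09 (CD-1) and 13.23 ± 0.03 (WT), with SD over 5 arrays each. Where its probe set lies relative to the deletion was not analysed here. The tissue label was set against alveolar type 2 markers, of which 9 of 10 measured genes passed the signal filter, and against hepatocyte markers, of which 6 of 9 never exceeded the table median. The log2 of the summed hepatocyte signal was at most 8.04 in WT air, 9.84 at 40 ppm and 10.22 at 120 ppm. Its medians there were 7.30, 7.41 and 7.23. Whether those high values bear on the carboxylesterase signal was not tested.

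**Figure D1:**
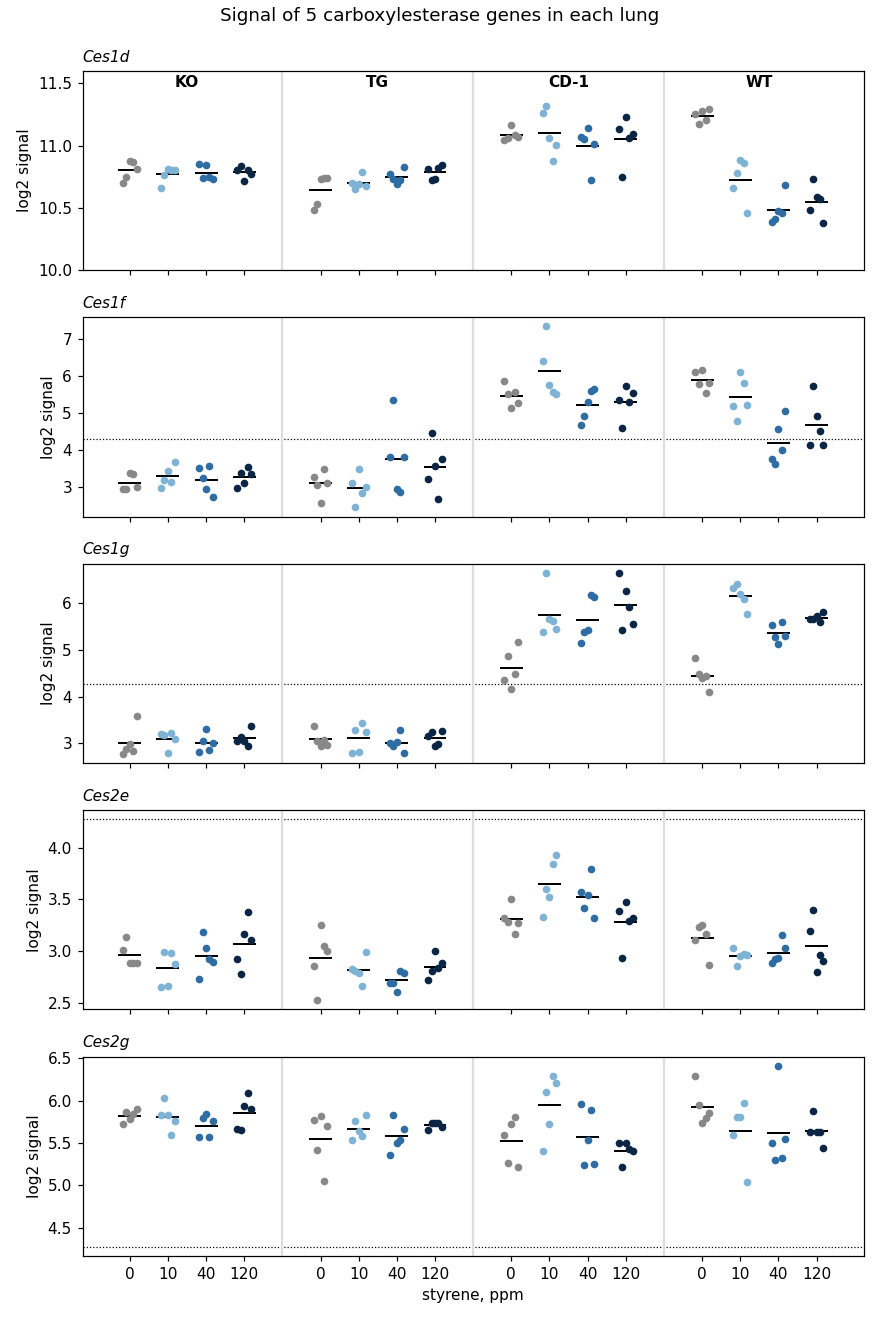
Log2 signal of the 5 genes in each of the 80 lungs (vertical axis) by styrene dose in ppm (horizontal axis), with 1 point per array and a bar at the mean of 5 arrays, for KO, TG, CD-1 and WT from left to right. The dotted line is the table median of 4.28. Ces1d in WT sits at or below 10.89 in all 15 styrene lungs and between 11.18 and 11.30 in air, while Ces1g in WT lies above its air range at every dose.

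In WT lung, styrene moved 3 of the 4 tested genes, and not all in 1 direction. Ces1d, the triacylglycerol hydrolase, fell at every dose. Ces1f, a close CES1 relative, fell at 40 and 120 ppm. Ces1g, a CES1 enzyme whose loss in mice is known to alter body and liver fat, rose at every dose. Ces2g, a CES2-type esterase, did not pass the test. With limma and Benjamini-Hochberg adjustment over 11406 genes at a threshold of 0.05, the mean of the 3 styrene doses against air called 1 member higher and 2 lower. The background in that comparison was 29.6 percent of all genes, 16.3 percent higher and 13.3 percent lower. The median difference was -0.47 over the 4 members and 0.0011 over all tested genes. In whole lung, fewer cells of a type and less RNA per cell cannot be told apart.

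Ces1d had 11.25, 11.18, 11.27, 11.20 and 11.30 in the 5 WT lungs in air. At 10 ppm it had 10.66, 10.78, 10.89, 10.86 and 10.46, and at 40 ppm 10.39, 10.41, 10.48, 10.46 and 10.68. At 120 ppm the WT lungs had 10.48, 10.73, 10.59, 10.57 and 10.38. Every styrene lung was below every air lung, and the 40 and 120 ppm lungs lay among each other. Relative to air, Ces1d fell by 0.51 ± 0.08 at 10 ppm (SE, adjusted p = 0.000188 in limma), which is 1.43-fold lower. It fell by 0.76 ± 0.08 at 40 ppm (adjusted p = 2.01e-06 in limma) and by 0.69 ± 0.08 at 120 ppm (adjusted p = 5.8e-06 in limma). The 3 contrasts share the air lungs. Between exposed doses, which do not use them, Ces1d did not pass: 40 minus 10 ppm was -0.24 (95% interval -0.41 to -0.08, adjusted p = 0.139 in limma). Without WT 10 ppm replicate 5, its lowest array at that dose, this difference passed at -0.31 (adjusted p = 0.0281 in limma).

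Ces1f had 6.11, 5.77, 6.16, 5.54 and 5.82 in WT lungs in air and 5.19, 4.79, 6.10, 5.80 and 5.22 at 10 ppm. It had 3.76, 3.60, 4.57, 3.99 and 5.04 at 40 ppm, and 4.13, 5.72, 4.93, 4.51 and 4.12 at 120 ppm. All 5 lungs at 40 ppm were below all air lungs, 1 lung at 120 ppm and 2 lungs at 10 ppm reached into the air range, and the spread at each styrene dose was wider than in air. The difference from air was -0.46 at 10 ppm (95% interval -1.11 to 0.19, adjusted p = 0.358 in limma), which did not pass. Ces1f fell by 1.69 ± 0.31 at 40 ppm (SE, adjusted p = 0.00065 in limma) and by 1.20 ± 0.31 at 120 ppm (adjusted p = 0.0085 in limma). It exceeded the median of its own array in 1 of 5 lungs at 40 ppm and 2 of 5 at 120 ppm, so no fold is given. Its difference between 40 and 10 ppm was -1.23 (95% interval -1.87 to -0.58, adjusted p = 0.061 in limma). That difference passed when all 80 arrays were fitted jointly (adjusted p = 0.0274 in limma) and without WT 40 ppm replicate 5 (-1.44, adjusted p = 0.0222 in limma).

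The Ces1f probe set carries the suffix that marks a match to several related transcripts, and CES1 genes are near copies of each other. How far its signal includes other CES1 transcripts was not analysed here.

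Ces1g had 4.84, 4.49, 4.39, 4.45 and 4.10 in WT lungs in air and 6.33, 6.42, 6.20, 6.09 and 5.77 at 10 ppm. It had 5.54, 5.29, 5.14, 5.60 and 5.30 at 40 ppm, and 5.66, 5.66, 5.73, 5.59 and 5.82 at 120 ppm. No styrene lung reached down to the air range, the 10 ppm lungs were higher than all 40 ppm lungs, and 4 of the 5 exceeded every 120 ppm lung. Ces1g rose by 1.71 ± 0.13 at 10 ppm (SE, adjusted p = 2.98e-08 in limma). In air it exceeded the median of its own array in 1 of 5 WT lungs, so no fold from air is given. It rose by 0.92 ± 0.13 at 40 ppm (adjusted p = 3.63e-05 in limma) and by 1.24 ± 0.13 at 120 ppm (adjusted p = 1.34e-06 in limma). The rise at the lowest dose was thus the largest of the 3, and 40 minus 10 ppm was -0.79 ± 0.13 (adjusted p = 0.00264 in limma), 1.73-fold lower at 40 ppm.

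In the comparison of 40 with 10 ppm Ces1g was the 1 member called, against a background of 0.947 percent, and none was called between 120 and 10 ppm, where the background was 0.903 percent. There the difference of Ces1g was -0.47 (95% interval -0.73 to -0.21, adjusted p = 0.0782 in limma), and without WT 10 ppm replicate 5 it passed at -0.57 (adjusted p = 0.0196 in limma). Between 120 and 40 ppm it was 0.32 (95% interval 0.06 to 0.58, adjusted p = 0.648 in limma), and the background was 0 percent of genes, 839 of which had an unadjusted p under 0.05. The order of the WT means of Ces1g was therefore air, 40, 120 and 10 ppm, in which neither 40 and 120 ppm nor 120 and 10 ppm passed a test of their difference.

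Ces2g had 6.29, 5.94, 5.74, 5.79 and 5.85 in WT lungs in air, 5.59, 5.81, 5.80, 5.97 and 5.04 at 10 ppm, 5.50, 5.30, 6.41, 5.32 and 5.54 at 40 ppm, and 5.63, 5.88, 5.63, 5.62 and 5.44 at 120 ppm. The ranges overlapped at every dose, and WT 40 ppm replicate 3 was the highest of the 20 lungs. For the mean of the 3 doses the difference from air was -0.29 (95% interval -0.61 to 0.03, adjusted p = 0.166 in limma). Without WT 40 ppm replicate 3 it passed at -0.36 (adjusted p = 0.0269 in limma), as did the 40 ppm contrast at -0.51 (adjusted p = 0.0201 in limma).

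Ces2e, another CES2-type gene, stayed between 2.52 and 3.93 in all 80 lungs. Its group means in WT were 3.12 ± 0.16 in air, 2.95 ± 0.06 at 10 ppm, 2.99 ± 0.11 at 40 ppm and 3.05 ± 0.24 at 120 ppm (SD, n = 5 each). In CD-1 they were 3.31 ± 0.12 in air, 3.65 ± 0.24 at 10 ppm, 3.53 ± 0.18 at 40 ppm and 3.28 ± 0.21 at 120 ppm.

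By dose, the counts among the 4 tested members in WT were 1 higher and 1 lower at 10 ppm, where 12.6 percent of all genes were called, 7.67 percent higher and 4.9 percent lower. They were 1 higher and 2 lower at 40 ppm, against 26 percent of all genes, 13.7 percent higher and 12.4 percent lower. At 120 ppm they were again 1 higher and 2 lower, against 23.9 percent, 14.3 percent higher and 9.65 percent lower. Ces1d and Ces1g made up the calls at 10 ppm, and Ces1f joined them at the other doses.

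**Figure D2:**
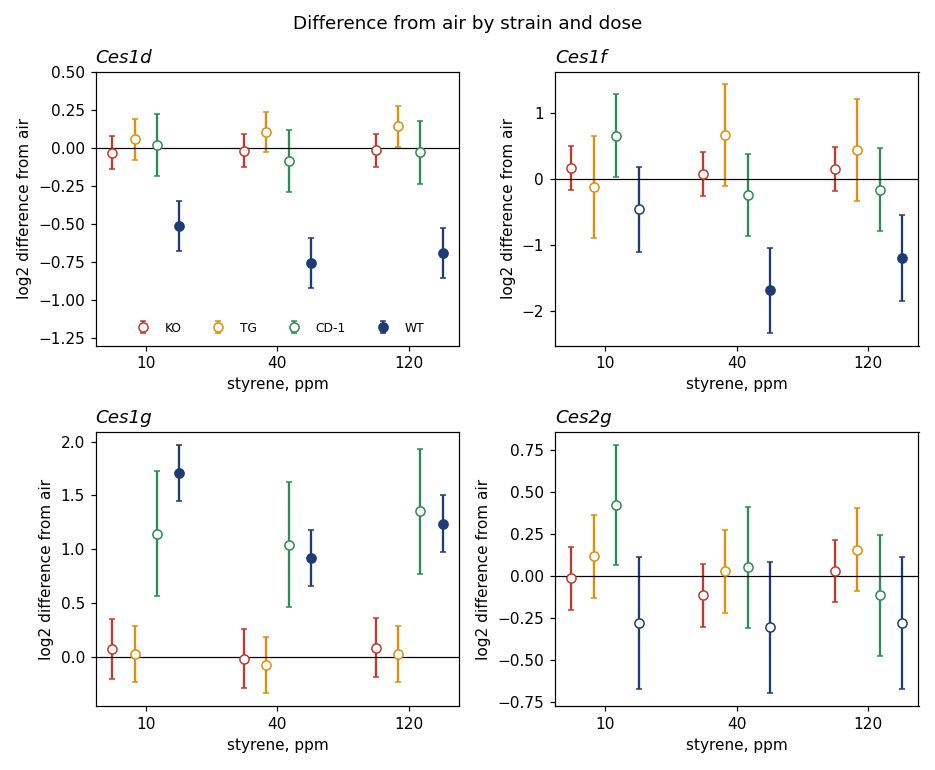
Difference from air in log2 units (vertical axis) at 10, 40 and 120 ppm styrene (horizontal axis) for the 4 tested genes in KO, TG, CD-1 and WT, as limma estimates with 95% intervals, each strain fitted alone. Filled symbols passed at an adjusted p of 0.05. In WT, Ces1d lies at -0.51 to -0.76 and Ces1g at 0.92 to 1.71, while Ces1g in CD-1 has open symbols between 1.04 and 1.36 with wider intervals.

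In KO and TG none of the 4 genes passed against air. In KO the limma test called 0 members at any dose, with 0 also at an unadjusted p under 0.05 and in the joint fit of all arrays. It called 0 percent of all genes, 644 of which had an unadjusted p under 0.05 for the mean of the 3 doses. Ces1d ran from 10.66 to 10.85 in the 15 KO styrene lungs and from 10.70 to 10.87 in the KO lungs in air. Its difference for the mean of the doses was -0.02 (95% interval -0.11 to 0.07, adjusted p = 0.981 in limma). The 2 ranges overlapped almost wholly. Ces1f and Ces1g had group means of 3.11 to 3.27 and 3.00 to 3.11 in KO, and in none of the 20 KO lungs did either exceed the median of its own array. Ces1g in KO differed from air by 0.05 for the mean of the doses (95% interval -0.17 to 0.28, adjusted p = 0.981 in limma).

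In TG, 0 members were called at any dose, against 0 percent of all genes at 10 and at 40 ppm, 0.0701 percent at 120 ppm and 0.105 percent for the mean of the doses. The joint fit of all arrays called 0 members too. At an unadjusted p under 0.05, limma gave 1 tested member against air, Ces1d at 120 ppm, with a difference of 0.14 (95% interval 0.01 to 0.27, adjusted p = 0.366). The median over all tested genes in that contrast was itself 0.06. After the median of the tested genes was subtracted from each array, Ces1d averaged 3.78 in TG air and 3.85 at 120 ppm. Ces1d had 10.81, 10.72, 10.73, 10.82 and 10.84 in TG lungs at 120 ppm and 10.48, 10.53, 10.73, 10.74 and 10.74 in air. The ranges overlapped, with 2 air lungs standing below the rest. Ces1f in TG was 3.26, 3.04, 2.55, 3.48 and 3.10 in air, 3.81, 5.33, 2.94, 2.85 and 3.81 at 40 ppm, and 3.21, 4.44, 3.56, 2.66 and 3.76 at 120 ppm. TG 40 ppm replicate 2 and TG 120 ppm replicate 2 were the only TG lungs in which Ces1f exceeded the median of its own array. Ces1f in TG at 40 ppm differed from air by 0.66 (95% interval -0.11 to 1.43, adjusted p = 0.69 in limma). Ces1g stayed between 2.78 and 3.44 in the 20 TG lungs. Ces2g ran from 5.57 to 6.09 in all KO lungs and from 5.05 to 5.82 in all TG lungs.

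In CD-1 lungs Ces1g was also higher with styrene than in air, with a wider spread than in WT. Ces1g had 4.36, 4.88, 4.17, 4.48 and 5.18 in CD-1 lungs in air and 5.39, 6.66, 5.67, 5.62 and 5.45 at 10 ppm. It had 5.15, 5.40, 5.42, 6.17 and 6.13 at 40 ppm, and 6.66, 5.44, 6.26, 5.92 and 5.56 at 120 ppm. Of the 15 styrene lungs, 14 were above the highest air lung, and 1 at 40 ppm was just under it.

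The difference of Ces1g from air in CD-1 was 1.15 at 10 ppm (95% interval 0.57 to 1.73, adjusted p = 1), 1.04 at 40 ppm (0.46 to 1.62, adjusted p = 0.504) and 1.36 at 120 ppm (0.78 to 1.94, adjusted p = 0.128), by limma in CD-1 alone. None passed, and the background there was 0, 0.00877 and 0.0175 percent of all genes. At an unadjusted p under 0.05 stood 3 tested members at 10 ppm (Ces1f, Ces1g and Ces2g) and 1 at each of the other doses (Ces1g). For the mean of the doses it was 1.18 (95% interval 0.71 to 1.66, adjusted p = 0.27 in limma) with a background of 0.00877 percent, and 367 genes had an unadjusted p under 0.05. The call depended on the fit: with all 80 arrays fitted jointly, which pools the spread over strains, Ces1g passed in CD-1 at every dose. The adjusted p was then 0.000553 at 10 ppm, 0.000442 at 40 ppm and 2.72e-06 at 120 ppm in limma. At 10 ppm it was the 1 gene called among all tested. The SD of Ces1g over 5 lungs was 0.41 to 0.52 in the CD-1 groups and 0.09 to 0.33 in the groups of the other strains. The p-values of the joint fit thus rest on a spread smaller than that of CD-1.

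The other 3 tested genes showed no call in CD-1 under either fit. Ces1d lay between 10.72 and 11.32 in the 15 CD-1 styrene lungs and had 11.04, 11.06, 11.16, 11.08 and 11.07 in air, with a difference of -0.03 for the mean of the doses (95% interval -0.20 to 0.14, adjusted p = 1 in limma). The styrene lungs lay on both sides of the air lungs. Ces1f had 5.85, 5.49, 5.14, 5.56 and 5.27 in air, 6.41, 7.34, 5.76, 5.55 and 5.51 at 10 ppm, 4.66, 4.92, 5.29, 5.59 and 5.64 at 40 ppm, and 5.36, 4.58, 5.73, 5.29 and 5.53 at 120 ppm. Its highest value of all 80 lungs, 7.34, was in CD-1 10 ppm replicate 2, which also held the highest Ces1g of that group. Ces2g ranged from 5.21 to 6.28 in CD-1 with styrene and from 5.22 to 5.81 in air.

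Whether the strains differed in their response was tested directly, as the styrene difference in KO, TG or CD-1 minus that in WT, on the 40 arrays of each pair. All of these share the WT lungs. For the mean of the doses, limma called 3 of 4 members for KO minus WT (background 17.2 percent), 3 of 4 for TG minus WT (14 percent) and 2 of 4 for CD-1 minus WT (5.42 percent). Those called for KO and for TG were Ces1d, Ces1f and Ces1g. Ces1f and Ces1g passed the signal filter almost only through WT and CD-1 arrays and were low in KO and TG. The KO and TG counts are therefore not read as more than the background. A positive value here means that the styrene difference was less negative, or more positive, than in WT.

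For Ces1d the response difference was 0.63 ± 0.08 for KO minus WT (SE, adjusted p = 8.92e-08 in limma) and 0.75 ± 0.08 for TG minus WT (adjusted p = 1.1e-08 in limma). It was 0.62 ± 0.10 for CD-1 minus WT (adjusted p = 0.000279 in limma). All 3 passed at each single dose as well. The fall of Ces1d in WT was thus larger than the difference from air in each of the other strains.

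For Ces1g the response difference was -1.24 ± 0.15 for KO minus WT (SE, adjusted p = 1.98e-07 in limma) and -1.29 ± 0.15 for TG minus WT (adjusted p = 5.67e-08 in limma). Ces1g passed the signal filter only through WT and CD-1 arrays. It exceeded the median of its own array in 0 of 20 KO lungs and 0 of 20 TG lungs. A rise from that level could stay partly unseen, so the KO and TG calls are no separate evidence that it was absent. For CD-1 minus WT the response difference of Ces1g was -0.11 (95% interval -0.63 to 0.41, adjusted p = 0.871 in limma). At 10 ppm, where the WT rise was largest, the CD-1 minus WT value was -0.56 (95% interval -1.20 to 0.08, adjusted p = 0.448 in limma).

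For Ces1f the response difference was 1.25 ± 0.30 for KO minus WT (SE, adjusted p = 0.00282 in limma) and 1.44 ± 0.41 for TG minus WT (adjusted p = 0.0155 in limma). It sets a fall in WT against a signal that in KO and TG was low in air as well. Ces1f passed the signal filter almost only through WT and CD-1 arrays. It exceeded the median of its own array in 0 of 20 KO lungs and 2 of 20 TG lungs. A fall of the WT size could hardly have shown from that level. The KO and TG calls are thus no separate evidence that these strains lacked the fall. For CD-1 minus WT the response difference of Ces1f was 1.20 ± 0.36 (adjusted p = 0.0457 in limma). That call was lost without the signal filter (adjusted p = 0.0624), with the replicate number as a block (adjusted p = 0.0734), and without most single arrays (adjusted p up to 0.0943, without WT 0 ppm replicate 3). At 40 ppm the CD-1 minus WT value was 1.45 (95% interval 0.54 to 2.35, adjusted p = 0.0808 in limma). Ces1d was the 1 member called in that comparison, against a background of 1.61 percent, and Ces1f joined it without WT 40 ppm replicate 5 (1.66, adjusted p = 0.0368 in limma).

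For Ces2g the response difference for the mean of the doses was 0.25 for KO minus WT (95% interval -0.10 to 0.61), 0.39 for TG minus WT (0.01 to 0.77) and 0.41 for CD-1 minus WT (-0.03 to 0.84). None passed, with adjusted p of 0.337, 0.165 and 0.29 in limma. The TG minus WT value passed without WT 40 ppm replicate 3, at 0.45 (adjusted p = 0.0435 in limma).

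The strains also differed before exposure. Ces1f and Ces1g in KO and TG lungs in air stood below their WT levels, while Ces1d and Ces2g did not pass. The limma test on array-centred values called 2 of 4 members lower in KO than in WT (background 12.7 percent, 6.29 percent lower) and 2 of 4 lower in TG than in WT (35.3 percent, 16.3 percent lower). It called 0 of 4 in CD-1 against WT (31.7 percent), although Ces1g had an unadjusted p of 0.0406, and 0 of 4 in TG against KO (26.1 percent), with 0 at an unadjusted p under 0.05. The 2 members called in KO and in TG, Ces1f and Ces1g, passed the signal filter almost only through WT and CD-1 arrays. A lower level in KO and TG was thus favoured in advance, and these calls are no separate evidence for it.

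On the centred scale, as log2 signal minus the array median of tested genes, Ces1f had -4.03, -4.05, -3.64, -3.65 and -3.97 in KO, and -3.65, -3.89, -4.37, -3.12 and -3.86 in TG. It had -1.23, -1.64, -1.97, -1.53 and -1.85 in CD-1, against -1.23, -1.59, -1.18, -1.82 and -1.53 in WT. The KO and TG lungs lay far below the CD-1 and WT lungs, and the last 2 strains overlapped. For Ces1f the difference from WT was -2.40 ± 0.18 in KO and -2.31 ± 0.18 in TG (SE). No p-values are given, because WT and CD-1 arrays brought Ces1f past the signal filter. In all 10 of these KO and TG lungs Ces1f lay below the median of its own array, so no fold is given.

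Ces1g had -4.21, -4.10, -4.00, -4.15 and -3.36 in KO and -3.54, -3.88, -3.97, -3.52 and -4.00 in TG on the same scale. It had -2.72, -2.26, -2.94, -2.62 and -1.94 in CD-1, against -2.50, -2.87, -2.95, -2.91 and -3.25 in WT. Each KO and TG lung was below each WT lung, KO replicate 5 coming closest to them. The difference from WT was -1.07 ± 0.18 in KO and -0.89 ± 0.18 in TG (SE), without p-values for the same reason. In CD-1 it was 0.40 (95% interval 0.02 to 0.79, adjusted p = 0.102 in limma). Without CD-1 0 ppm replicate 3, the last passed at 0.51 (adjusted p = 0.0416 in limma).

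In order of the centred means in air, Ces1g stood at -3.96 in KO, -3.78 in TG, -2.90 in WT and -2.49 in CD-1. KO and TG did not differ in a test (TG minus KO 0.18, 95% interval -0.20 to 0.56), nor did CD-1 and WT.

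Ces1d on the same scale averaged 3.82 ± 0.07 in KO, 3.78 ± 0.23 in TG, 3.98 ± 0.05 in CD-1 and 3.89 ± 0.06 in WT (SD, n = 5 each). Its difference from WT was -0.07 in KO (95% interval -0.24 to 0.10), -0.11 in TG (-0.28 to 0.06) and 0.09 in CD-1 (-0.08 to 0.26), with adjusted p of 0.639, 0.307 and 0.448 in limma. The TG value was set in part by TG 0 ppm replicate 4, the array with the lowest median. Without it the difference was -0.20 (adjusted p = 0.0165 in limma), and after quantile normalization of all arrays it was -0.26 (adjusted p = 0.00215 in limma). On the deposited values, where the median over all tested genes was itself shifted against WT by -0.36 (KO), -0.48 (TG) and -0.23 (CD-1), Ces1d differed by -0.44, -0.60 and -0.16 in the same order. All 3 then passed (adjusted p of 1.16e-05, 1.35e-07 and 0.0377 in limma), against none after centring. The Ces1d sign in CD-1 thus turned with the scaling.

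Ces2g differed from WT in air by 0.27 in KO (95% interval 0.01 to 0.54), 0.11 in TG (-0.15 to 0.38) and -0.15 in CD-1 (-0.42 to 0.11), with adjusted p of 0.168, 0.504 and 0.384 in limma. On the deposited values the TG difference was -0.37 (adjusted p = 0.0225), so its sign turned as well.

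**Figure D3:**
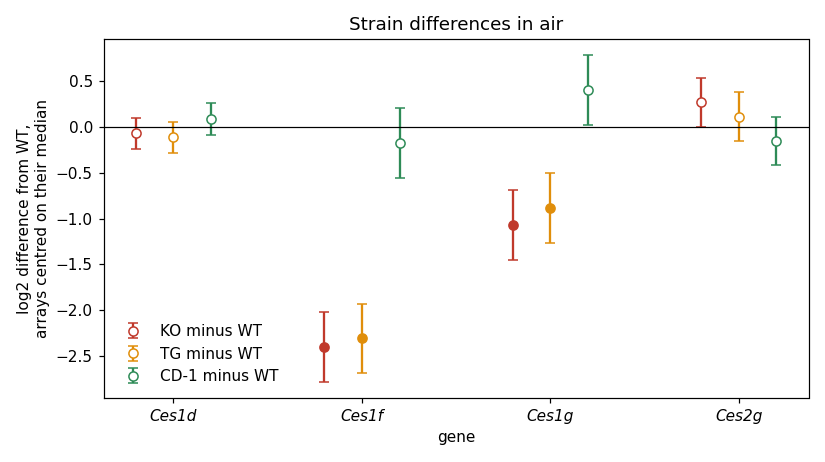
Strain differences from WT in air for the 4 tested genes (horizontal axis), in log2 units after each array was centred on its median over the tested genes (vertical axis), as limma estimates with 95% intervals from 5 arrays per strain. Filled symbols passed at an adjusted p of 0.05. Ces1f and Ces1g in KO and TG lie between -0.89 and -2.40, the intervals of Ces2g in KO and Ces1g in CD-1 start just above 0, and the other intervals cross 0. Ces1f and Ces1g passed the signal filter almost only through WT and CD-1 arrays.

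The wider family was described from a list of 20 mouse carboxylesterase genes, of which 13 had a probe set of their own and 6 passed the signal filter. In the RefSeq gene table the list forms 2 runs on chromosome 8. Ces1a to Ces1h and Ces5a follow one another without another protein-coding gene, and 68 protein-coding genes further on stand Ces2a to Ces2h, Ces3a, Ces3b and Ces4a. Ces1d, Ces1e, Ces1f and Ces1g are direct neighbours in that order.

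Beyond the members, Ces1e and Ces2b were tested. Ces2b exceeded the table median in 8 arrays, all of CD-1 or TG, and exceeded the median of its own array in 0 of the 20 WT lungs. Ces1e, also called egasyn, is known for holding beta-glucuronidase in the endoplasmic reticulum. It had 5.60, 5.72, 4.98, 5.57 and 5.44 in WT lungs in air, 4.63, 3.90, 4.96, 4.69 and 4.12 at 10 ppm, 3.68, 3.60, 4.28, 4.22 and 4.55 at 40 ppm, and 4.32, 4.16, 4.08, 3.94 and 3.98 at 120 ppm. Every styrene lung was below every air lung. For the mean of the doses Ces1e fell by 1.25 ± 0.16 (SE, adjusted p = 1.29e-05 in limma). At 40 and at 120 ppm it exceeded the median of its own array in 0 of 5 WT lungs, so no fold is given. Ces2b differed by -0.34 ± 0.11 (adjusted p = 0.0202 in limma), a value at the low end of the scale that rests on a gene admitted through other strains. Thus 3 CES1 neighbours, Ces1d, Ces1e and Ces1f, fell in WT while the fourth, Ces1g, rose. In KO, TG and CD-1 neither Ces1e nor Ces2b passed for the mean of the doses, Ces1e differing from air by 0.10, 0.06 and 0.05.

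In air, Ces1e was lower than in WT by a difference of -0.90 ± 0.13 in KO (SE, adjusted p = 0.000159 in limma) and -0.55 ± 0.13 in TG (adjusted p = 0.00222 in limma). For Ces2b the differences from WT were 0.75 ± 0.12 in TG and 0.77 ± 0.12 in CD-1, given without a test because TG and CD-1 arrays alone brought it past the signal filter. Ces1c, Ces2a, Ces2f, Ces3b, Ces4a and Ces5a did not pass the signal filter. Their differences from air in WT, not tested, ran from -0.31 for Ces1c to 0.10 for Ces2a.

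**Figure D4:**
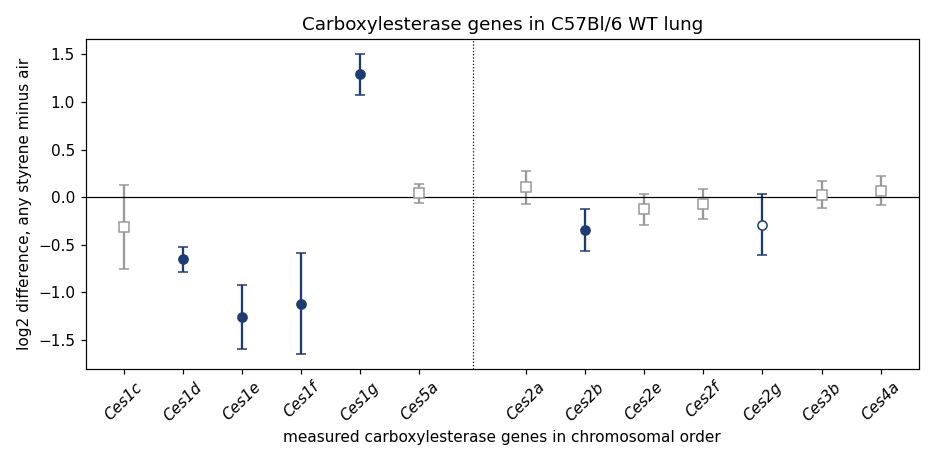
Difference between any styrene and air in WT lung, in log2 units (vertical axis), for the 13 measured carboxylesterase genes in chromosomal order (horizontal axis), as limma estimates with 95% intervals over 15 styrene and 5 air arrays. Filled circles passed at an adjusted p of 0.05, open circles were tested and did not pass, grey squares were below the signal filter, and the dotted line separates the 2 runs of genes. Ces1d, Ces1e and Ces1f lie at -0.65, -1.25 and -1.12 and their neighbour Ces1g at 1.29.

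Since these neighbours moved in opposite directions, the RefSeq promoter windows of a gene that rose and of one that fell are shown. They cover 250 bases before to 50 after the start of the gene, on GRCm38.p6, and 3 of the 5 members had one, Ces1g, Ces2e and Ces2g. Ces1g lies on the minus strand at chr8:93337160-93337459, and Ces1e on the minus strand at chr8:93229570-93229869. Both are written 5′ to 3′ in the direction of the gene. Capitals mark matches to the motifs searched.
Ces1g: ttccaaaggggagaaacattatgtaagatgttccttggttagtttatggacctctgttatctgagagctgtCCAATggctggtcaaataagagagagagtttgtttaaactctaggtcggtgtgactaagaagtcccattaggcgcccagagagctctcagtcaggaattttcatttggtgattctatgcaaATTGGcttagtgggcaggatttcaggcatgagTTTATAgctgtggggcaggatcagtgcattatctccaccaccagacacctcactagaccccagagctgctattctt
Ces1e: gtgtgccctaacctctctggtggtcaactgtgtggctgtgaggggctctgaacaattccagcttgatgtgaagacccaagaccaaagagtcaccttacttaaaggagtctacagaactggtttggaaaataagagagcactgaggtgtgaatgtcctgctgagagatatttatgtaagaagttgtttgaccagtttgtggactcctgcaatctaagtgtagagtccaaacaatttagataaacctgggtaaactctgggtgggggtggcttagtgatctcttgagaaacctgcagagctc
On both strands, 9 motifs were searched, and no match overlapped another: the TATA box (TATAAA), the CCAAT box (CCAAT), the GC box (GGGCGG), the E-box (CACGTG), the AP-1 site (TGANTCA), the core of the antioxidant response element (TGACNNNGC), the core of the interferon response element (written GAAA, NN, GAAA without gaps), the nuclear receptor half-site (AGGTCA) and the AHR core (GCGTG). The Ces1g window held a CCAAT box on the gene's strand at bases 72 to 76, a CCAAT box on the opposite strand at bases 193 to 197, and a TATA box on the opposite strand at bases 225 to 230, counted from the first base printed. The Ces1e window held none of the 9. Of 32851 promoter windows of this length, 37.4 percent held a CCAAT box and 13.6 percent a TATA box, so the matches are common. The antioxidant response core was in 12.4 percent of windows and the interferon response core in 3.44 percent, and neither was in these 2.

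The genes whose signal most resembled each member were sought over the 80 arrays, after the mean of its strain was taken from each value. These correlations are descriptions over arrays that share strains and doses. The WT response to styrene stayed in the values, so the choice favoured genes that moved as the member did in WT. For Ces1d the 3 highest Pearson r were 0.87 with Elapor1, 0.84 with Slc4a5 and 0.82 with Cbr2, a carbonyl reductase of club cells. For Ces1f they were 0.80 with Ugt1a9, a glucuronosyltransferase, 0.77 with Lypd2 and 0.75 with the water channel Aqp4. All 6 fell in WT for the mean of the doses, from -0.36 for Ugt1a9 to -1.88 for Lypd2. For Ces1g they were 0.68 with Nqo1, a quinone reductase, 0.66 with Ifit1bl1 and 0.63 with Ddx58, the RNA sensor RIG-I. These 3 rose in WT, by 1.04 ± 0.09 for Nqo1, 2.59 ± 0.18 for Ifit1bl1 and 1.04 ± 0.11 for Ddx58 (SE). No p-values are given for them, because they were chosen by likeness on the same arrays. For Ces2g they were 0.56 with Gpld1, 0.53 with Fndc1 and 0.48 with Eno3. Among the family genes themselves, Ces1d correlated at 0.77 with Ces1e and 0.62 with Ces1f, and at -0.37 with Ces1g.

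Most club cell markers and some ciliated cell markers fell in WT beside Ces1d, Ces1e and Ces1f, while Ces1g rose. Of 12 club cell markers, all tested, 8 fell for the mean of the doses, against 13.3 percent of all genes, among them Cbr2, Cyp2f2, Lypd2 and Scgb1a1, with 5 falling at 10 ppm, 11 at 40 ppm and 7 at 120 ppm, against 4.9, 12.4 and 9.65 percent of all genes. The log2 of their summed signal was 15.73 to 15.96 in WT lungs in air, 15.39 to 15.76 at 10 ppm, 15.04 to 15.57 at 40 ppm and 15.19 to 15.60 at 120 ppm, and none of the 12 lay below the table median throughout. For the mean of the doses, 0 of the 12 were called in KO and TG and 1 in CD-1, against 0, 0.105 and 0.00877 percent of all genes. That 1 marker was the only gene called in CD-1. Of 10 ciliated cell markers 4 fell in WT for the mean of the doses, against the same 13.3 percent, and 6 did not pass. Their summed signal ran from 11.75 to 12.04 at 120 ppm and from 12.23 to 12.46 in air. Of 9 macrophage markers 1 rose and 5 fell, against 16.3 and 13.3 percent of all genes. The part of these cell types in the Ces1d, Ces1e and Ces1f values was not tested. Other lists held calls too. Of 10 fibroblast markers 1 rose and 3 fell, and of 10 endothelial markers 2 fell. Of 9 tested alveolar type 2 markers 2 rose, and of 9 alveolar type 1 markers 1 rose and 1 fell. Of 7 tested mesothelial markers 1 rose and 1 fell, and none of 6 cardiac muscle markers passed. Of 5 tested adipocyte markers 1 rose for the mean of the doses, where 16.3 percent of all genes rose, and their median was -0.44. At 40 and at 120 ppm 1 rose and 1 fell, with medians of -0.66 and -0.94. There 13.7 and 14.3 percent of all genes rose, and 12.4 and 9.65 percent fell. The summed signal of the 7 measured had a median of 10.79 in WT air, 9.66 at 40 ppm and 9.45 at 120 ppm, with overlapping ranges. Of 2 tested hepatocyte markers none passed, while Alb differed by 0.54 (adjusted p = 0.221 in limma). Of the 9 measured, 6 never exceeded the table median.

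Other hydrolases that act on foreign esters and epoxides were examined in WT as related enzymes. Of 13 tested, 6 fell and 1 rose for the mean of the doses, where 13.3 percent of all genes fell and 16.3 percent rose, with a median of -0.25 against 0.0011 over all genes. Pon1, a paraoxonase that is also on the club cell list, fell by 1.56 ± 0.12 (SE, adjusted p = 1.73e-08 in limma), and Ephx1, the microsomal epoxide hydrolase that hydrates styrene oxide, fell by 0.48 ± 0.06 (adjusted p = 1.17e-05 in limma). Esd, which hydrolyses S-formylglutathione, rose by 0.65 ± 0.06 (adjusted p = 4.91e-07 in limma).

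Genes of neutral lipid storage and hydrolysis, with which Ces1d is associated in liver and fat, mostly did not pass. Of 16 tested, 3 rose and 1 fell, with a median of -0.08, a share near the 29.6 percent of all genes called and so no result about the list. Lipg, the endothelial lipase, rose by 0.34 ± 0.09 (adjusted p = 0.00784 in limma), Lipe, the hormone-sensitive lipase, by 0.48 ± 0.15 (adjusted p = 0.0213 in limma) and the lipid droplet coat gene Plin2 by 0.26 ± 0.08 (adjusted p = 0.0252 in limma). Of 8 tested transcription factors that are known to act on carboxylesterase genes, 2 fell and none rose, again near the share over all genes. Pparg fell by 0.46 ± 0.09 (SE, adjusted p = 0.000535 in limma) and Sp1 by 0.14 ± 0.04 (adjusted p = 0.0123 in limma), while Nfe2l2, which encodes NRF2, differed by -0.07 (adjusted p = 0.298 in limma).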

How the data were processed

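RNA of 80 mouse lungs, 5 in each of 16 groups, was read on Affymetrix arrays. Per the submitters' processing notes, the authors used RMA and Partek, and the values they deposited are log2 signals of 45037 probe sets. The sources used here do not give versions, settings, the array's genome build or whether strains were normalized together. Of the probe sets, 28898 carried 1 gene symbol, 551 several and 15588 none. The probe set with the highest mean stood for each of 17097 genes, 7180 of which had several. The symbols of all 13 measured carboxylesterase genes matched the RefSeq gene table (GRCm38.p6) through their Entrez IDs, and promoter sequences are credited to RefSeq.

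Fits used limma 3.58.1 in R 4.3.3, and the package data.table (1.17.8). Dose contrasts came from 1 fit per strain (20 arrays), responses were compared on the 40 arrays of 2 strains, and strains in air on the 20 air arrays after centring. In all, 44 contrasts were fitted, each adjusted by the Benjamini-Hochberg method over 11406 genes, with a threshold of 0.05. P-values measure the spread between arrays labelled as biological replicates. The scripts were tested on simulated data. The members and gene lists were chosen with earlier results of these data known. The genes named are the members, the other measured carboxylesterase genes, the 3 genes most like each member, up to 3 genes with the lowest p from each other list, and the targeted gene Cyp2f2. Scgb1a1, Alb and Nfe2l2 were named after their values were seen. Alternatives were the signal filter, the mean over probe sets, the replicate number as a block, a variance trend, a joint fit of 80 arrays, array centring, quantile normalization, air values without centring and leaving out each array. Replicate numbers were not taken to pair lungs. Within a strain, between 7 and 11 of 30 same-numbered pairs had deviations correlated above 0.1, a share not computed for other pairs. The median correlation ran from -0.02 (WT) to 0.05 (KO) for same-numbered pairs. For other pairs it ran from -0.04 (KO) to -0.01 (CD-1).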

Additional observations from a re-analysis of the deposited data

Results flagged for a closer look

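The 5 genes in 16 groups gave 80 sets of 5 values on the same lungs, of which 3 held a value far from the other 4, where chance gives about 1 in 20. Ces1g stood at 6.66 in CD-1 10 ppm replicate 2, against 5.39 to 5.67 in the other CD-1 lungs at that dose, and at 3.59 in KO 0 ppm replicate 5, against 2.77 to 2.99 in the other KO air lungs. Ces2g stood at 6.41 in WT 40 ppm replicate 3, against 5.30 to 5.54 in the other WT lungs at that dose.

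The response to styrene differed between a strain and WT in 27 tested comparisons of a member, each by a limma interaction with an adjusted p under 0.05. Each of the 4 tested members was compared for KO, TG and CD-1 at 10, 40 and 120 ppm and for their mean, which reuses the single doses. The share of all genes called ran from 1.61 percent (CD-1 at 40 ppm) to 17.2 percent (KO, mean of the doses). For Ces1d, KO minus WT was 0.48 at 10 ppm, 0.74 at 40 ppm, 0.68 at 120 ppm and 0.63 for the mean of the doses. TG minus WT was 0.57, 0.86, 0.83 and 0.75 in the same order, and CD-1 minus WT was 0.53, 0.67, 0.66 and 0.62. For Ces1g, KO minus WT was -1.63 at 10 ppm, -0.93 at 40 ppm, -1.15 at 120 ppm and -1.24 for the mean, and TG minus WT was -1.68, -0.99, -1.20 and -1.29.

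For Ces1f, KO minus WT was 1.77 at 40 ppm, 1.35 at 120 ppm and 1.25 for the mean of the doses, TG minus WT was 2.35, 1.64 and 1.44, and CD-1 minus WT was 1.20 for the mean. The TG minus WT value of Ces1f at 120 ppm was lost without any of 8 single lungs, with adjusted p up to 0.0725. These comparisons share the WT lungs, and Ces1f and Ces1g in KO and TG lay below the median of their own arrays in nearly all lungs, with 2 TG lungs above it for Ces1f.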

How the results depend on the processing

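For the 4 tested members, 176 differences were recomputed, 43 of them called. Of 1232 values under other settings, 1217 kept their side of the threshold, 2 lost a call, 11 gained one and 2 became calls of the opposite sign. Of the 1217, 11 uncalled values changed sign. Of 2640 values with 1 array left out, 2599 kept their side of the threshold, 96 of them uncalled values that changed sign, 32 lost a call, all of them Ces1f in a response difference, 9 gained one, and 0 called values changed sign. The 2 calls of opposite sign came with air values left uncentred: -0.16 for Ces1d in CD-1 minus WT and -0.37 for Ces2g in TG minus WT. That setting shifts all genes with the array medians, and called 3 members in KO minus WT (2 with centring), 3 in CD-1 minus WT (0 with centring) and 4 in TG minus WT (2 with centring). In CD-1 minus WT in air, 1 member was called without the filter, and 0 to 1 with an array left out. The 1 without the filter was Ces2e, with a difference of 0.47. The joint fit called 1 member, Ces1g, in CD-1 at 10, 40 and 120 ppm and for the mean, against 0. For the mean response of CD-1 minus WT, 2 members were called, against 1 without the filter, 1 with the replicate block and 1 to 2 with an array left out. The replicate block changed no other call. The response at 40 ppm of CD-1 minus WT had 1 to 2 with an array left out, WT 120 minus 10 ppm had 0 to 1, and WT 40 minus 10 ppm had 1 to 2, and 2 with the variance trend and with the joint fit. The cause was not tested.

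Over all genes, the uncentred values called 8552 genes for KO minus WT in air, against 1448, 9167 for TG minus WT, against 4024, and 6090 for CD-1 minus WT, against 3612. The joint fit called 115 genes in CD-1 at 120 ppm, against 2, and 44 at 40 ppm, against 1. For the mean of the doses the alternatives called 0 to 22 in CD-1, against 1, and 0 to 280 in TG, against 12, and in TG 0 to 222 at 10 ppm, against 0, 0 to 17 at 40 ppm, against 0, and 4 to 119 at 120 ppm, against 8. For KO minus WT the response counts fell to 506 at 10 ppm, against 866, 1030 at 40 ppm, against 1590, and 824 at 120 ppm, against 1305. For CD-1 minus WT at 40 ppm they ran from 126 to 397, against 184, and from 88 to 707 with an array left out. Leaving out an array gave 53 to 276 for WT 40 minus 10 ppm, against 108, 29 to 202 for WT 120 minus 10 ppm, against 103, and 919 to 1784 for WT 10 ppm against air, where all arrays gave 1434. With 5 arrays per group and Ces1f, Ces1g and Ces2e near the low end of the scale in KO and TG, small changes of these genes are limited by signal over background.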
